A study of Mus musculus with 2 samples.

Results

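The Mir322 to Mir450 cluster is a run of 7 microRNA hairpins on the mouse X chromosome: Mir322, Mir503, Mir351, Mir542, Mir450-2, Mir450-1 and Mir450b. Its members were taken by gene symbol and are 7 of the 1973 microRNA gene rows in each deposited table. The rule uses no measured value, but it was set with earlier results of these data known. Short RNA was sequenced from hindbrain of healthy B6NCrl mouse embryos at embryonic day 13.5, males and females pooled, in 2 biological replicates that form 1 group. Both libraries carry 1 donor identifier and have separate biosample identifiers. Whether they represent different litters is not stated, so p-values measure only how far these samples lie apart, part of which may be technical. Nothing was treated, mutated or compared across stages, so the results are levels in this tissue and the agreement of its libraries.

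MicroRNAs are cut from hairpins in longer transcripts and guide silencing proteins to messenger RNAs, mostly through the seed, bases 2 to 8 of the mature strand. Hairpins that lie close together on 1 strand are often cut from 1 primary transcript. Mir322, whose human counterpart is named miR-424, and Mir503 are known from mouse muscle precursors and other proliferating cells, where they repress cell cycle genes such as Cdc25a, and the cluster is also known from placenta and embryonic mesoderm. Mir351 is known from mouse muscle progenitors as a repressor of E2f3. In human cell lines miR-542-3p represses the gene of the survival protein survivin.

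The mature sequences show how the members are related. RefSeq (GRCm38.p6) held mature strands for 7 of 7 members, 13 named strands of 21 to 24 nt. Those below are shown in 4 groups, because the seeds, in capitals, are identical or close within a group. The first group is miR-322-5p and miR-503-5p, given with miR-15a-5p and miR-16-5p from outside the cluster.

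miR-322-5p: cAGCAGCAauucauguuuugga

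miR-503-5p: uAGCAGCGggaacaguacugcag

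miR-15a-5p: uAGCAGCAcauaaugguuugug

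miR-16-5p: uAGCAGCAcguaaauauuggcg

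Counted from 1 at the 5′ end of miR-322-5p, miR-503-5p carries the substitution A8G, the only one in the seed. The seed of miR-322-5p is identical to that of miR-15a-5p and miR-16-5p, and from each of them it is set apart at the first base by C1U. Past the seed the strands diverge: miR-322-5p and miR-15a-5p match at 15 of 22 positions without gaps, and miR-322-5p and miR-503-5p at 11 of 22. The seed of miR-322-5p is carried by 9 other mature names in RefSeq, and that of miR-503-5p by 0 others.

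The second group is miR-351-5p, whose seed is that of the mir-125 family, the mammalian relatives of worm lin-4.

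miR-351-5p: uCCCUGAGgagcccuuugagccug

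miR-125b-5p: uCCCUGAGacccuaacuuguga

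Their first 8 bases are identical, and 10 of 22 positions match over the length of miR-125b-5p. The third group is miR-542-3p, with a seed that 0 other names in the table carry.

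miR-542-3p: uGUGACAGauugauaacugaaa

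The fourth group is the mir-450 strands.

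miR-450a-5p: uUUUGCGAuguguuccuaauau

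miR-450b-5p: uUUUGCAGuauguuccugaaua

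miR-450b-5p is set apart from miR-450a-5p in the seed by G7A and A8G. The strand miR-450a-5p is listed for both Mir450-1 and Mir450-2, with the same 22 bases. The hairpins of these copies share 6 stretches of 20 nt, of 72 in Mir450-1 and 50 in Mir450-2, and the other 5 members share none with any of the 1894 hairpins that have a sequence.

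The cluster spans 6353 nt at chrX:53047997-53054349 on GRCm38, the assembly that mm10 denotes, on the minus strand. From its 5′ end, Mir322 (ENSMUSG00000065418.1) lies at chrX:53054255-53054349, Mir503 (ENSMUSG00000076122.1) at chrX:53053984-53054054 and Mir351 (ENSMUSG00000065503.1) at chrX:53053255-53053353. Mir542 (ENSMUSG00000076140.1) lies at chrX:53049403-53049487. Mir450-2 (ENSMUSG00000076399.1) lies at chrX:53048299-53048367, Mir450-1 (ENSMUSG00000065486.1) at chrX:53048154-53048244 and Mir450b (ENSMUSG00000076050.1) at chrX:53047997-53048078.

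The hairpins fall into a 5′ set, Mir322, Mir503 and Mir351, with gaps of 200 and 630 nt, and a 3′ set, Mir450-2, Mir450-1 and Mir450b, with gaps of 54 and 75 nt. Mir542 stands between them, 3767 nt after Mir351 and 1035 nt before Mir450-2. All 7 are intergenic in GENCODE M21, with 0 members inside a gene of another kind on their strand. The long non-coding gene Gm28730 fills part of the gap between Mir351 and Mir542. C430049B03Rik, also non-coding and on the same strand, ends 696 nt upstream of Mir322. No other microRNA row lies within 50 kb, and the nearest is Mir106a at 305 kb.

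**Figure D1:**
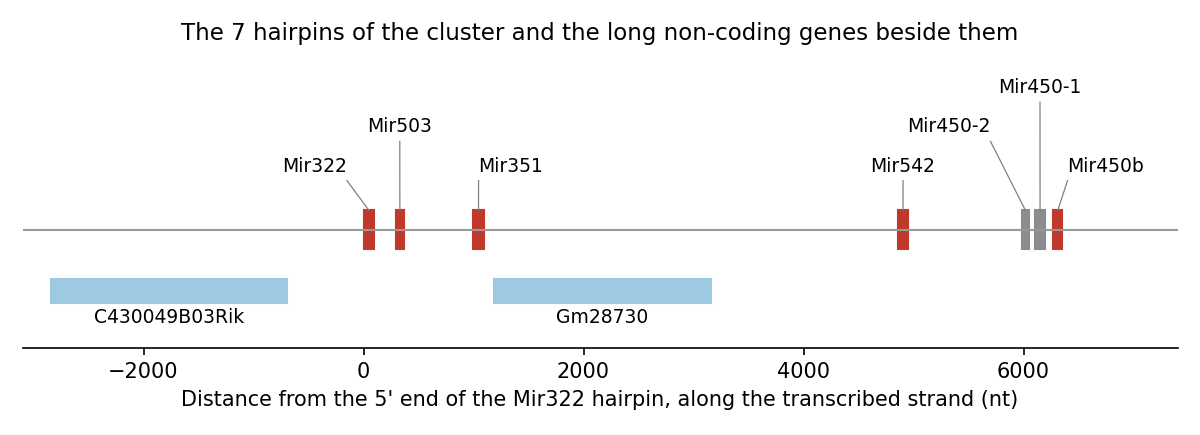
Map of the cluster to scale, with the distance in nt from the 5′ end of the Mir322 hairpin along the transcribed strand. Red boxes are the 5 hairpins with at least 10 counts in both libraries, grey boxes are Mir450-2 and Mir450-1, and blue boxes are the long non-coding genes Gm28730 and C430049B03Rik; the 3767 nt gap before Mir542 is the widest.

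Levels are given as counts-per-million values (CPM), the reads on the annotated strand of a gene over the sum of such reads in all gene rows of its library. Replicate 2 held 4508244 such reads and replicate 1 held 3006571. A read covers a whole mature strand, so the levels were not divided by length. The rows add up both arms of a hairpin, so the 5p and 3p strands printed above could not be told apart. Reads that mapped to several places, 34.5% of reads in replicate 2 and 33.9% in replicate 1, are in no gene row. No molecular identifiers are named, so intervals cover counting error only. In bulk tissue, fewer cells that use a gene and less RNA in each cannot be told apart.

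With a minimum of 10 counts in each library, 5 of the 7 members were detected, where 18.0% of all 1973 rows were. The 7 together had 9470 CPM in replicate 2 (exact Poisson 95% interval 9380 to 9560) and 10023 CPM in replicate 1 (9911 to 10137). That is 9747 ± 391 CPM (SD, n = 2), or 0.975% ± 0.0391 of the counted reads. Most of it came from 1 hairpin.

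Mir322, the first hairpin and the carrier of the mir-15/16 seed, stood at 8358 CPM in replicate 2 and at 8859 CPM in replicate 1. It held 88.3% of the cluster's counts in replicate 2 (exact Clopper-Pearson 95% interval 87.9 to 88.6) and 88.4% in replicate 1 (88.0 to 88.7). Its share was thus the same within counting error in both libraries. Without Mir322 the other 6 hairpins summed to 1138 ± 37.1 CPM (SD, n = 2).

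Mir351, the carrier of the mir-125 seed, had a level of 790 CPM in replicate 2 and of 859 CPM in replicate 1. It held 8.34% of the cluster's counts in replicate 2 and 8.57% in replicate 1. Mir322 exceeded it 10.6-fold in replicate 2 and 10.3-fold in replicate 1.

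Mir542, the hairpin that stands alone in the middle, reached 187 CPM in replicate 2 and 174 in replicate 1, or 1.97% and 1.73% of the cluster's counts. Mir503, only 200 nt from Mir322 and close to it in seed, stood at 97.4 CPM in replicate 2 and at 95.1 CPM in replicate 1. Mir322 exceeded Mir503 85.8-fold in replicate 2 and 93.1-fold in replicate 1. These neighbours of near-identical seed thus lay far apart in level, with Mir351 and Mir542 between them.

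Mir450b, the last hairpin, reached 35.3 CPM in replicate 2 and 29.9 CPM in replicate 1, from 159 and 90 counts. Mir450-1 had 9 counts in replicate 2 and 12 in replicate 1, or 2.00 and 3.99 CPM. Mir450-2 had 3 counts in replicate 2 and 9 in replicate 1, or 0.665 and 2.99 CPM. The values of these copies are uncertain, because a read of their common 5p strand matches both and could be set aside as multimapping, which was not tested. Mir450b, which shares no stretch of 20 nt with another hairpin, was detected. Its 3p strand matches that of Mir450-1 at 20 of 22 positions, and the 3p strands of Mir450-1 and Mir450-2 match at 16 of 22. Whether such likeness bears on any of these counts was not tested.

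The order of the members by level was the same in both libraries: Mir322, Mir351, Mir542, Mir503, Mir450b, Mir450-1 and Mir450-2. Neighbours in this order did not overlap between the libraries, apart from Mir450-1 and Mir450-2, whose ranges overlapped. It is not the order along the locus, in which Mir503 comes straight after Mir322. The step was 4.24-fold in replicate 2 and 4.95-fold in replicate 1 between Mir351 and Mir542, 1.92-fold and 1.83-fold between Mir542 and Mir503, and 2.76-fold and 3.18-fold between Mir503 and Mir450b. Ratios between hairpins are ratios of counted reads, and how efficiently each strand entered the libraries was not tested.

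**Figure D2:**
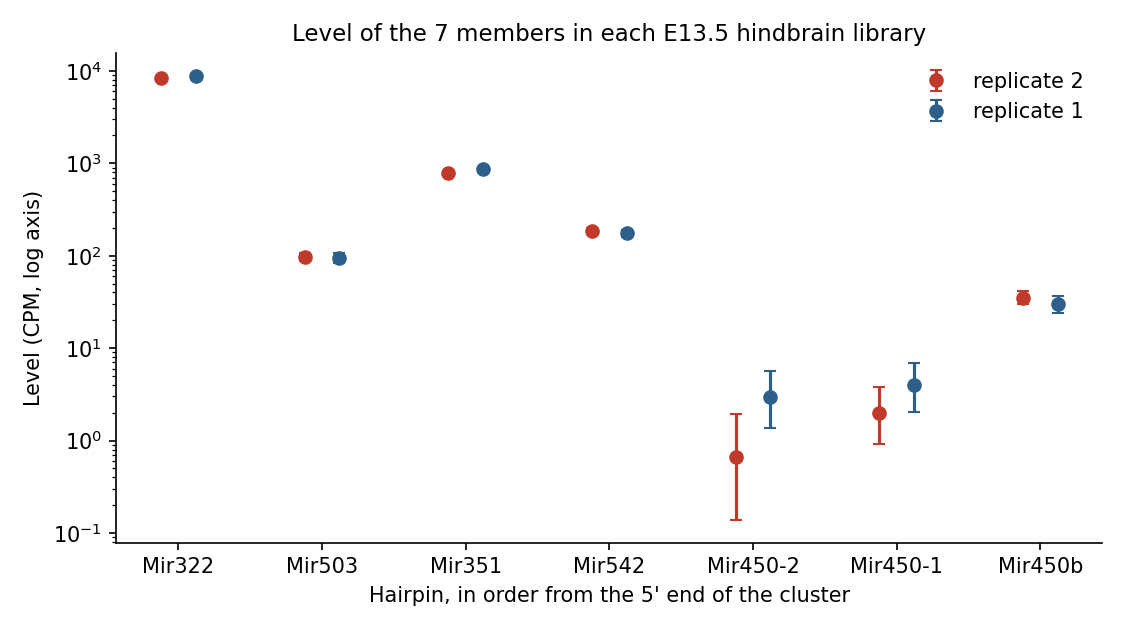
Level of each member in CPM on a log axis, in order from the 5′ end of the cluster, with replicate 2 left and replicate 1 right of each pair. Bars are exact Poisson 95% intervals; Mir322 stands at 8358 and 8859 CPM, and Mir450-2 and Mir450-1 lie at or below 3.99 CPM with the widest bars.

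On the opposite strand the members had 0 counts in both libraries. Since 0 observed reads leave room for 3 counts, a level of up to 0.665 CPM in replicate 2, and of up to 0.998 CPM in replicate 1, could have been missed.

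Among all 356 detected microRNA genes, Mir322 ranked 22 in replicate 2 and 19 in replicate 1. Mir351 ranked 99 and 96, Mir542 171 and 177, Mir503 207 and 204, and Mir450b 260 and 267. The median detected gene had 166 CPM on average, a level that 3 of the 5 detected members exceeded.

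The genes nearest to Mir322 in mean level were Mir30a and Mir181d above it and Mir106b and Mir369 below it. Mir30a averaged 8821 ± 33.5 CPM, Mir181d 8661 ± 162 CPM, Mir322 8608 ± 354 CPM, Mir106b 8463 ± 515 CPM and Mir369 7709 ± 586 CPM (SD, n = 2 each). Mir322 overlapped Mir30a, Mir181d and Mir106b between libraries and did not overlap Mir369. With 1 tissue at 1 stage there is no pattern across conditions by which to find genes like it.

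**Figure D3:**
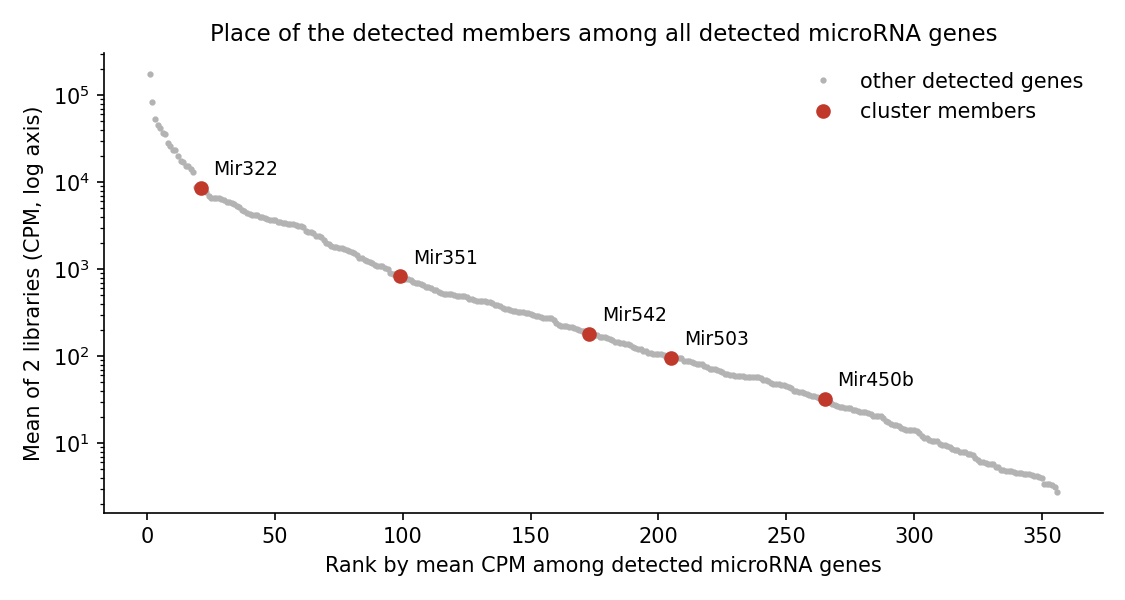
Mean CPM of the 2 libraries on a log axis against rank among the 356 detected microRNA genes. Red points are the 5 detected members, which spread from Mir322 near the top to Mir450b at rank 265.

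Mir322 was also the most abundant microRNA row of the X chromosome in both libraries. Of the 120 rows there, 38 were detected, and next to Mir322 by mean level came Mir652, at 4171 CPM in replicate 2 and 3783 in replicate 1, where Mir361 stood at 3798 CPM. The 7 members held 28.0% of the X chromosome's counts in replicate 2 and 31.6% in replicate 1, nearly all of it from Mir322, with 24.7% and 27.9%. Among the detected X rows Mir351 ranked 10 by mean level, Mir542 21, Mir503 27 and Mir450b 36. Because multimapping reads are in no row, X rows with copies elsewhere may be undercounted. The effect on these ranks and shares was not tested.

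A single hairpin took a smaller share in each of the 3 other clusters set beside it. The leading hairpin was Mir106a in the X-linked Mir106a to Mir363 cluster, with 43.0% of the cluster's counts in replicate 2 and 43.3% in replicate 1. It was Mir17 in the mir-17-92 cluster, with 62.9% and 63.7%, and Mir302a in the Mir302 cluster, with 41.6% and 44.1%. The share of Mir322, 88.3% and 88.4%, lay above each of these in both libraries, and the difference was not tested. Such dominance was not particular to this cluster, as a pair looked at after the levels were seen shows. Of the neighbours Mir143 and Mir145a on chromosome 18, Mir143 had 6291 CPM in replicate 2 and 6689 in replicate 1. Mir145a had 78.7 and 82.5 CPM. The cluster's sum of 9747 CPM lay above the 2019 ± 23.7 CPM of the Mir106a to Mir363 cluster and the 1811 ± 99.9 CPM of the Mir302 cluster, and below the 57046 ± 2678 CPM of mir-17-92 (SD, n = 2 each). Reads that mapped to several places are in no row, so hairpins with copies elsewhere may be undercounted in these shares and sums. How far that moves them was not tested.

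Among the genes with its seed Mir322 was the most abundant row. The mir-15/16 genes are known as brakes on cell cycle entry. Mir322, at 8358 CPM in replicate 2 and 8859 CPM in replicate 1, exceeded Mir15a, the highest of them, at 2288 and 2379 CPM. Mir16-1 had 1774 and 1713 CPM, Mir15b 755 and 803 CPM, Mir16-2 311 and 274 CPM, and Mir195a 276 and 278 CPM in replicates 2 and 1. Mir16-1 and Mir16-2 share 4 stretches of 20 nt and have the same miR-16-5p strand, so their values are uncertain in the same way as those of the Mir450 copies.

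Mir322 stood at 1.55 times the sum of the mir-15/16 list in replicate 2 and 1.63 times in replicate 1. That sum rests on 7 rows, of which 5 were detected. They include Mir16-1 and Mir16-2, whose uncertain values make the sum and the ratio uncertain too. Any of their reads set aside as multimapping would be missing from the sum, so the ratio may be too high, which was not tested. Mir195b had 0 counts. Mir497b, which is on the list by name but whose mature strand has another seed, had 3 counts in replicate 2 and 0 in replicate 1. Mir497, whose miR-497a-5p has this seed, lacks its own row here and is missing from the sum. The other 3 genes of the RefSeq table with this seed, Mir6342, Mir6353 and Mir6419, had 0 counts in both libraries and were chosen by seed after the levels were seen. Mir503, with its altered seed, came to 1.8% of the list's sum in replicate 2 and 1.75% in replicate 1.

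Mir351 was the least abundant detected gene with its seed. Mir125a stood at 3738 CPM in replicate 2 and 3605 CPM in replicate 1, Mir125b-2 1776 and 1861 CPM, and Mir125b-1 1534 and 1665 CPM, against 790 and 859 CPM for Mir351. Mir351 thus came to 11.2% of the summed mir-125 list in replicate 2 and 12% in replicate 1. The values of Mir125b-1 and Mir125b-2 are uncertain, as these hairpins have 5 stretches of 20 nt in common. The 2 other genes with this seed, Mir6367 and Mir6394, had 0 counts in both libraries. As counted without multimapping reads, the cluster thus held the highest row of 1 seed family and the lowest detected row of another.

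**Figure D4:**
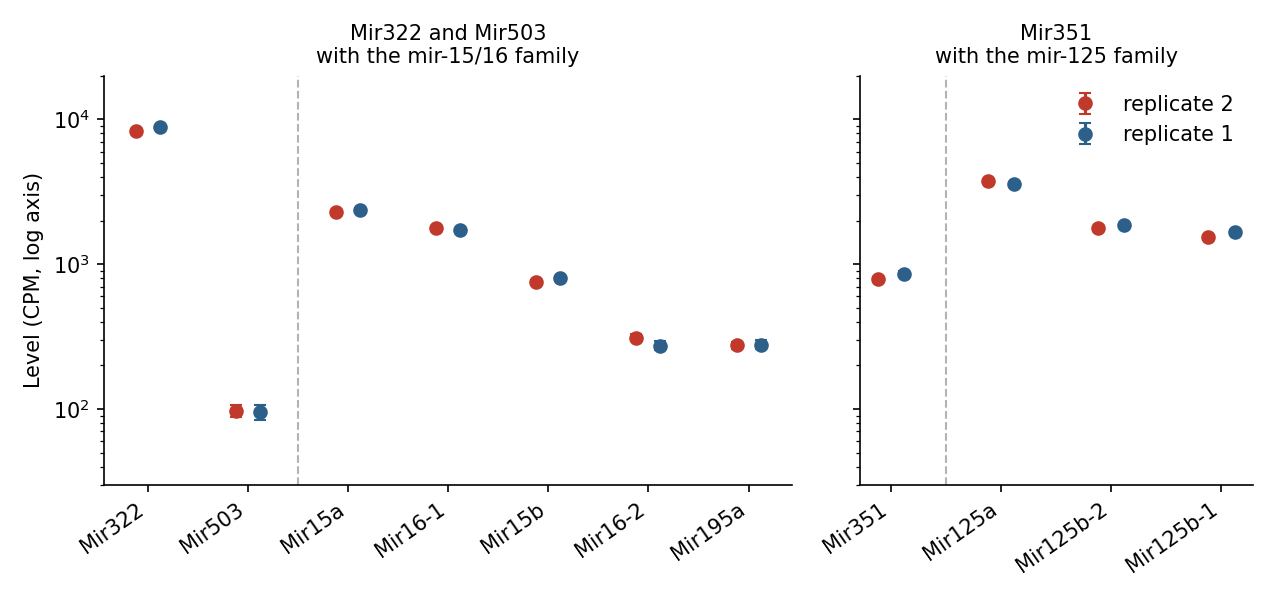
CPM on a log axis in replicate 2 (left of each pair) and replicate 1 (right), with exact Poisson 95% intervals that are mostly smaller than the points. Members of the cluster stand left of the dashed lines; Mir322 lies above all 5 detected mir-15/16 rows and Mir351 lies below all 3 mir-125 rows.

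Between the libraries the detected members differed little. The log2 ratio of replicate 2 over replicate 1, with trimmed-mean (TMM) library sizes, was -0.10 for Mir322, -0.13 for Mir351, 0.09 for Mir542, 0.02 for Mir503 and 0.22 for Mir450b. Their median was 0.02, beside 0.01 over all 356 detected genes. The median absolute log2 ratio was 0.10 over the 5 detected members and 0.17 over all detected genes. These sets were not matched for depth. The members had at least 90 counts in each library, while the 356 genes include some near the minimum of 10.

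A two-sided exact binomial test on the counts, adjusted by Benjamini-Hochberg over all 356 detected genes, called 2 of the 5 members, where it called 45.2% of all detected genes. It sets 1 library against the other rather than 1 condition against another, and allows for no error beyond counting. The called members were Mir322 (adjusted exact p = 4.08e-16) and Mir351 (adjusted exact p = 0.00124), the deepest counted, and both were lower in replicate 2, as were 22.8% of all detected genes. None was higher, where 22.5% of all detected genes were. Mir542 had an adjusted exact p of 0.390, Mir503 of 0.926 and Mir450b of 0.363.

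The common spread between the libraries, edgeR's biological coefficient of variation (BCV), was 0.141. With edgeR's exact test at that BCV, 0 of the 5 members and 1.40% of all detected genes were called. At a preset BCV of 0.1 it was 0 members and 3.65% of the detected genes. At an unadjusted p under 0.05, the estimated BCV passed 0 members and 18 of all 356 genes, and the preset BCV 0 members and 28 genes. With 1 library on each side such tests rank genes and cannot establish a difference. The BCV of 0.141 was also estimated from the same 2 libraries that it tests, so their difference is part of it. No conclusion on the members is drawn from these calls. The log2 ratios of Mir322 and Mir351, -0.10 and -0.13, were smaller in size than the median absolute log2 ratio of 0.17 over all detected genes.

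**Figure D5:**
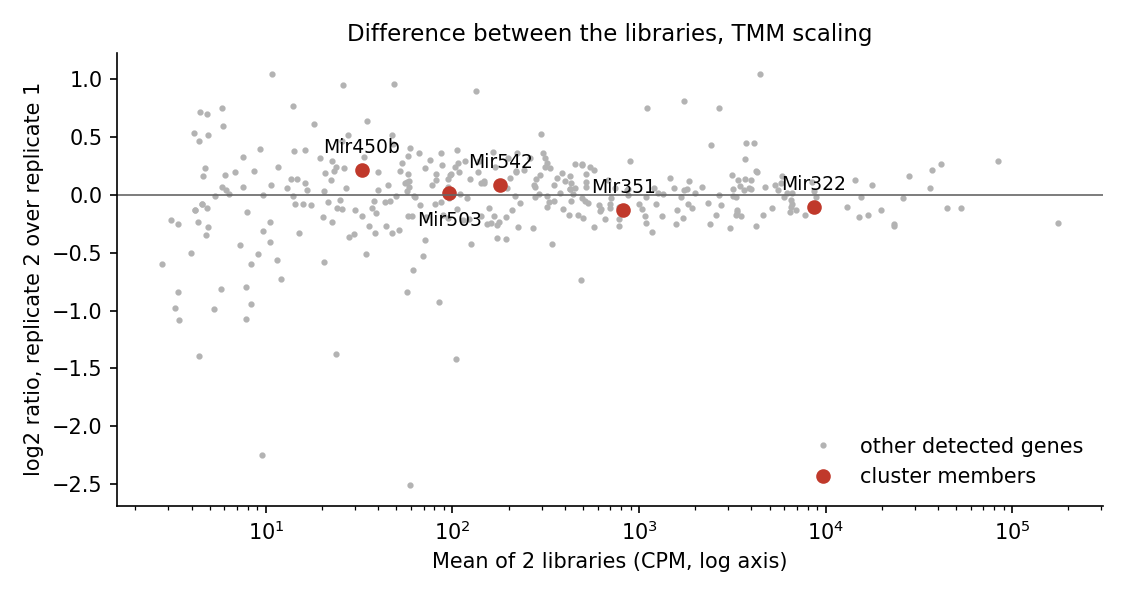
The log2 ratio of replicate 2 over replicate 1 (TMM scaling) against mean CPM on a log axis, for the 356 detected genes. The 5 detected members, in red, lie between -0.13 for Mir351 and 0.22 for Mir450b, inside the cloud of the other genes.

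Markers of the tissue and of other cell types also varied between the libraries, and their part in the cluster's values was not tested. The neural and hindbrain list, 9 of 13 rows detected, summed to 142570 CPM in replicate 2 and 119241 CPM in replicate 1. That difference lay in Mir10a and Mir10b of the Hox clusters: without them the list summed to 9694 CPM in replicate 2 and 9833 in replicate 1. Mir137, the next of the list, had 6281 and 6132 CPM. In replicates 2 and 1, Mir153 had 1451 and 1707 CPM, Mir128-1 675 and 723, and Mir128-2 468 and 532. Mir9-3 had 619 and 527 CPM, Mir218-2 158 and 177, Mir218-1 27.7 and 26.3, and Mir9-2 3.33 and 2.99. The 3 Mir124a copies, defining markers of neurons, had at most 5.10 CPM. Copies among these may be undercounted without multimapping reads, which was not tested.

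Choroid plexus and multiciliated genes summed to 9694 CPM in replicate 2 and 4991 in replicate 1, with 6 of 7 rows detected and all 6 higher in replicate 2. Endothelial and mural genes, 3 of 3 rows detected, summed to 25286 and 27312 CPM. Mesenchyme genes, 4 of 5 rows detected, summed to 3844 CPM in replicate 2 and 4539 in replicate 1. Blood genes, 5 of 5 rows detected, summed to 452 and 486 CPM, with 4 of the 5 higher in replicate 2 and Mir451a lower, at 57.5 CPM in replicate 2 and 152 in replicate 1.

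Muscle genes, 3 of 8 rows detected, summed to 90.1 CPM in replicate 2 and 152 in replicate 1, and the detected ones differed in direction. Mir206, of skeletal muscle, had 64.1 CPM in replicate 2 and 32.6 in replicate 1, while Mir208b, from a myosin gene, had 17.7 and 100 CPM and Mir208a 3.33 and 15.6 CPM. Mir1a-1, Mir133a-1 and Mir133a-2 had 0 counts in both libraries. The values of Mir1a-1, Mir133a-1, Mir133a-2 and the Mir124a copies are uncertain. Each has a copy with a mature strand in common, and such reads could be set aside as multimapping, which was not tested.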

How the data were processed

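Short RNA of 2 hindbrain libraries was read as the raw counts per microRNA gene that the authors deposited, 1 table per library, on mm10 and GENCODE M4, per the README beside the tables. The aligner is not given in the sources used here, nor are counter and trimming. Each table has 1973 gene rows and 4 summary rows, which stayed out of library sizes and tests. Of the columns that split the counts by strand, the one holding 98.1% of gene counts was taken as the annotated strand. Gene rows held 47.5% of 9486700 reads in replicate 2 and 49.0% of 6141045 in replicate 1.

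Names and coordinates came from GENCODE M21 (GRCm38; 1894 of 1973 rows matched), mature sequences from RefSeq. CPM uses total gene counts. Library ratios used TMM sizes (edgeR 4.0.16, R 4.3.3) over genes with at least 10 counts in both libraries. They were tested by an exact binomial test at an adjusted p of 0.05. That test was tried on simulated counts with counting error only, so the trial does not cover the wider spread of these libraries. Intervals used SciPy 1.17.1. Alternatives were totals, DESeq2 1.42.0 size factors, either strand, other count minimums, all reads as denominator, edgeR exact tests and each library alone.

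The members and lists were chosen with earlier results of these data known. Genes outside the cluster were named if they were in a seed list, among the 3 highest of another list, within 2 places of Mir322 by mean CPM or annotated beside the cluster. Mir652, Mir361, the Mir124a copies, Mir1a-1, Mir133a-1, Mir133a-2 and same-seed genes outside the lists were named after their values were seen. The same holds for Mir153, Mir9-2, Mir9-3 and the Mir128 and Mir218 copies.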

Additional observations from a re-analysis of the deposited data

Results flagged for a closer look

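The column of reads on the strand opposite to the annotation, which no level above uses, held 1337 counts in replicate 2 and 895 in replicate 1 at Mir497b, a gene on the mir-15/16 list by name only, far above the 3 counts that a count of 0 allows. These equal 297 CPM in replicate 2 and 298 in replicate 1. On that strand GENCODE M21 annotates Mir497 at chr11:70234717-70234800, inside the span of Mir497b at chr11:70234692-70234816 (GRCm38). No cluster member had an opposite-strand count.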

How the results depend on the processing

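With all reads in the table as denominator instead of gene counts, the cluster summed to 4704 CPM and Mir322 stood at 4154 CPM, by construction of the larger denominator. With reads on either strand, Mir322 came to 1.5 times the mir-15/16 sum instead of 1.59, since that sum then holds the opposite-strand reads of Mir497b. From 1 library alone the cluster's sum ran from 9470 to 10023 CPM, Mir322 from 8358 to 8859 CPM, its ratio to the mir-15/16 sum from 1.55 to 1.63, and the ratio of Mir351 to the mir-125 sum from 0.112 to 0.12. Under either-strand counts, TMM sizes and DESeq2 size factors, 23 of 24 levels moved by less than 1 SD; Mir503 moved to 94.4 CPM with either-strand counts. Of the 5 detected members, 5 passed at 50 counts and 7 members passed at 1 count. The 2 members called by the exact binomial test were again 2 under totals, DESeq2 size factors, either-strand counts, no count filter and a minimum of 50 counts, and became 0 with either edgeR exact test. The log2 ratio of Mir503, called in no setting, was -0.00048 with no count filter. In that setting its counts were the same and only the TMM library sizes changed. Depth limits Mir450-1 and Mir450-2, at 12 counts or fewer.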
